A study of Canis lupus familiaris with 11 samples.

Results

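XPO1 and THOC5 are genes of nuclear export whose RNA was measured here in canine osteosarcoma, exon bin by exon bin. An exon bin is a stretch of exonic sequence left after the overlapping transcripts of a gene have been split into pieces that do not overlap. All bins carrying the identifier of either gene were taken: 25 bins of XPO1 (ENSCAFG00000003050) and 21 bins of THOC5 (ENSCAFG00000012262), which together are 46 of the 217945 bins and 2 of the 24390 genes of the table. XPO1 lies on chromosome 10 and THOC5 on chromosome 26 of the dog, both on the minus strand. All 46 bins passed the filter for low values, a mean of at least 10 over the libraries.

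XPO1, also named CRM1 or exportin 1, is the receptor that carries proteins with a leucine-rich nuclear export signal out of the nucleus together with the GTP-bound form of the small GTPase Ran. It also exports several classes of RNA through adaptor proteins, and it is the target of export inhibitors used in cancer treatment. THOC5 is a subunit of the THO complex, which binds nascent mRNA, forms part of the TREX complex and helps to hand mature mRNA to the export receptor NXF1. The genes thus belong to separate export routes. The study picked a pair of neighbouring exons of each gene as a candidate reference sequence for RT-qPCR, because a reference sequence should have an even level across tumours.

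Poly(A) RNA of 8 spontaneous osteosarcoma tissues and of 3 primary osteosarcoma cell lines had been sequenced, each from a different dog. The tissues came from a Boxer (1033), a Leonberger (1091), a mixed-breed dog (0320), a Landseer (0460), a Great Pyrenees (DOS-119), a Great Dane (DOS-126), an English Mastiff (DOS-127) and a Golden Retriever (DOS-71). These dogs were between 4 years 6 months and 12 years 6 months old at diagnosis, and all were female except the donor of DOS-126. The cell lines OSCA-30, OSCA-32 and OSCA-40 came from a male German Shepherd, a female Great Pyrenees and a female Saint Bernard aged between 5 years 8 months and 8 years 7 months. Treatment is given as CARBO (1033, 0460), AMP (1091, OSCA-40), SOC (DOS-126, DOS-71, OSCA-30, OSCA-32), PALL (DOS-127) or EUTH at Dx (0320, DOS-119), and the methods state that material was taken before cytotoxic drugs. The tissue 1033 is labelled as a lung metastasis. For RNA isolation, the RNeasy Fibrous Tissue Mini Kit had served for 1033, 1091, 0320 and 0460, TRIzol for the DOS tissues and the RNeasy Mini Kit for the cell lines. Kind of sample and isolation kit therefore cannot be told apart. A cell line is a single culture of 1 tumour and lacks the stroma, vessels and blood cells of a tissue. In such bulk RNA a lower share of expressing cells and less RNA per expressing cell cannot be told apart.

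Depth ranged from 3123757 counted reads in DOS-71 to 24902774 in DOS-119, and the next shallowest library was OSCA-32 with 3471461. XPO1 was covered by 578 to 6926 reads per library and THOC5 by 496 to 4366, whereas single bins held as few as 3 reads, in bin 25 of XPO1. The deposited value is the read number multiplied by 1 factor per library, here called scaled reads. A gene value is the sum of the bins of a gene. Since bin and transcript lengths are not in the table, levels are compared between libraries but not between the genes. Library names place 1033, 1091, 0320, 0460, OSCA-30 and OSCA-32 on lane 6 and the remaining libraries on lane 7. The names of DOS-126 and DOS-71 carry the same index sequence and the same lane number. A shared lane number therefore need not stand for a single run.

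As whole genes, XPO1 was measured somewhat higher and THOC5 somewhat lower in the cell lines than in the tissues, and neither difference passed the test. The gene value of XPO1 was lowest in 1033 (1441 scaled reads), had a median of 1713 and was highest in DOS-119 (2001) among the tissues. It was 1696 in OSCA-30, 2318 in OSCA-32 and 2449 in OSCA-40, so that OSCA-30 lay within the range of the tissues while the other lines lay above it. The means were 1717 ± 221 (SD, n = 8) in tissues and 2154 ± 402 (SD, n = 3) in cell lines, a log2 difference of 0.32 (SE 0.23). With limma, which was run on log2(value + 1) over 13858 genes, the adjusted p was 0.369.

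THOC5 varied more among the tissues. Its gene value was 1196 in DOS-119, the lowest tissue, had a median of 1709 and reached 2643 in DOS-126. It was 1412 in OSCA-30, 1509.9 in OSCA-32 and 939 in OSCA-40, and OSCA-40 alone fell below every tissue. The tissue mean was 1803 ± 444 (SD, n = 8) and the cell line mean 1287 ± 305 (SD, n = 3), with a log2 difference of -0.48 (SE 0.28) and an adjusted p of 0.261 (limma). DOS-119 thus held the highest XPO1 and the lowest THOC5 value of all tissues in the deposited scaling.

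Across all genes tested, 17% passed an adjusted p of 0.05 in this comparison, 2.6% as higher and 14.4% as lower in the cell lines, and the genes XPO1 and THOC5 were not among them. The median log2 difference of all genes was -0.37 in the deposited scaling, -0.10 after scaling by median ratios of gene values (median-of-ratios scaling), -0.19 after scaling to equal totals of reads and -0.08 after TMM scaling. The difference of XPO1 was correspondingly 0.59, 0.50 and 0.61 under these other scalings, and that of THOC5 was -0.21, -0.30 and -0.19, so both directions were kept. Relative to the median gene, XPO1 was higher by 0.69 and THOC5 differed by -0.11, values that a factor per library leaves nearly unchanged by construction. The call for XPO1 depended on the test, since DESeq2 on the recovered reads gave a log2 difference of 0.59 with an adjusted p of 0.0433, while edgeR gave 0.63 with an adjusted p of 0.0889.

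**Figure D1:**
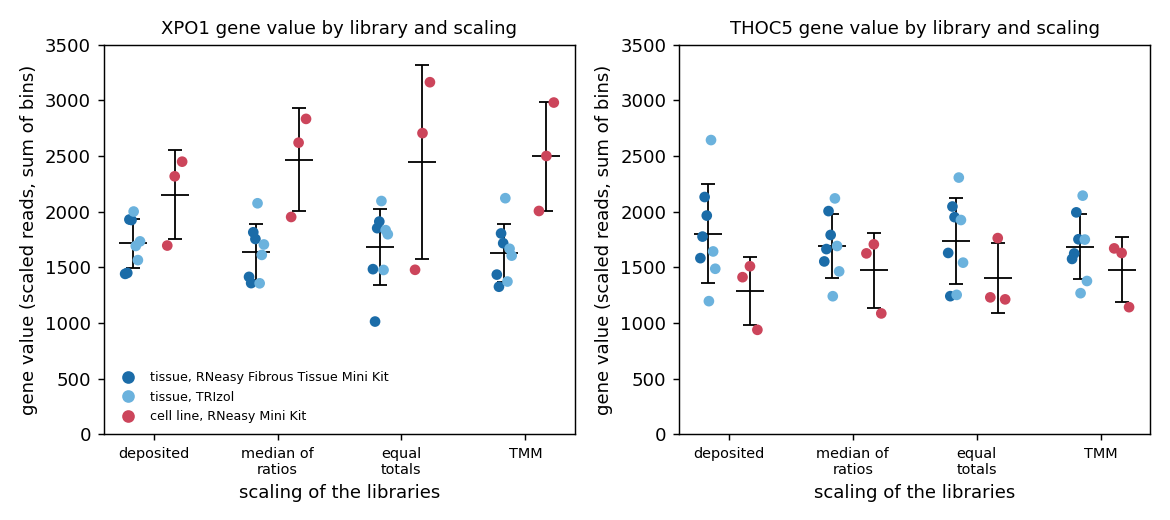
Gene value of XPO1 (left) and THOC5 (right) in scaled reads on the vertical axis for each library under 4 scalings on the horizontal axis. Each point is a library, coloured by kind of sample and isolation kit, and the bars show mean and SD of the 8 tissues and of the 3 cell lines. The cell line mean of XPO1 lies above the tissue mean and that of THOC5 below it under each scaling. The points of both groups overlap for both genes under each scaling.

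The ratio of XPO1 to THOC5 within a library does not depend on the library's factor. On the log2 scale it was -0.64 in DOS-126, the lowest tissue, and 0.74 in DOS-119, the highest, with the other tissues between -0.29 and 0.22. It was 0.26 in OSCA-30, 0.62 in OSCA-32 and 1.38 in OSCA-40. The cell line mean of 0.76 ± 0.57 (SD, n = 3) exceeded the tissue mean of -0.04 ± 0.40 (SD, n = 8) by 0.80 (two-sided exact permutation test over 165 splits, p = 0.0242). The tissue DOS-119 lay above OSCA-30 and OSCA-32. Without OSCA-40 the difference was 0.49 (exact permutation p = 0.200), against 1.04 without OSCA-30 and 0.87 without OSCA-32 (exact permutation p = 0.0444 for each). With TRIzol tissues alone it was 0.69 (exact permutation p = 0.200), and with those of the fibrous tissue kit alone 0.91 (exact permutation p = 0.0286). The call was also lost without DOS-71 and OSCA-32, at 0.91 (exact permutation p = 0.0556). Each subset allows fewer splits, so a lost call alone does not show on which libraries it rested.

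Along XPO1, in tissues bin values fell steeply from bin 1 to bin 25, and in cell lines they fell far less. Bin 1 held 281 to 703 scaled reads in the tissues, with a median of 403, and 187, 232 and 303 in OSCA-30, OSCA-32 and OSCA-40. It was thus lower in OSCA-30 and OSCA-32 than in every tissue. Bin 25 held 3.39 to 20.1 scaled reads in the tissues, with a median of 6.28, and 20.96, 47.9 and 34.3 in the lines, all above every tissue.

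Of the 25 bins of XPO1, 8 passed the test for a single bin, and all were higher in the cell lines. They were bins 18 to 25, with log2 differences from 1.67 to 2.07. Over all 101533 bins tested with limma, 13.8% passed, 4.55% as higher and 9.25% as lower. Bin 20 differed most, from 4.24 to 16.7 scaled reads in tissues (median 13.8) against 33.0, 62.3 and 42.8 in the lines, a log2 difference of 2.07 (SE 0.50, limma adjusted p = 0.0177). Tissue and cell line values did not overlap in 13 bins of XPO1, of which 12 were higher in the lines. Among all bins tested 14.3% did not overlap, 5.92% as higher and 8.37% as lower. At the other end, bin 2 ranged from 83.1 to 162 in tissues and was 58.4, 74.3 and 78.1 in the lines, a log2 difference of -0.70 (SE 0.29, limma adjusted p = 0.112).

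The count of called XPO1 bins rested on few libraries. It was 0 without OSCA-32, 0 without OSCA-40, 3 without OSCA-30, 3 without 1091, 3 without 0320, 4 without 0460, 4 without DOS-126 and 5 without 1033, and 0 when only the TRIzol tissues were used. The bins at this end had the lowest counts, with 3 to 11 reads in the library with the fewest in bins 18 to 25.

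**Figure D2:**
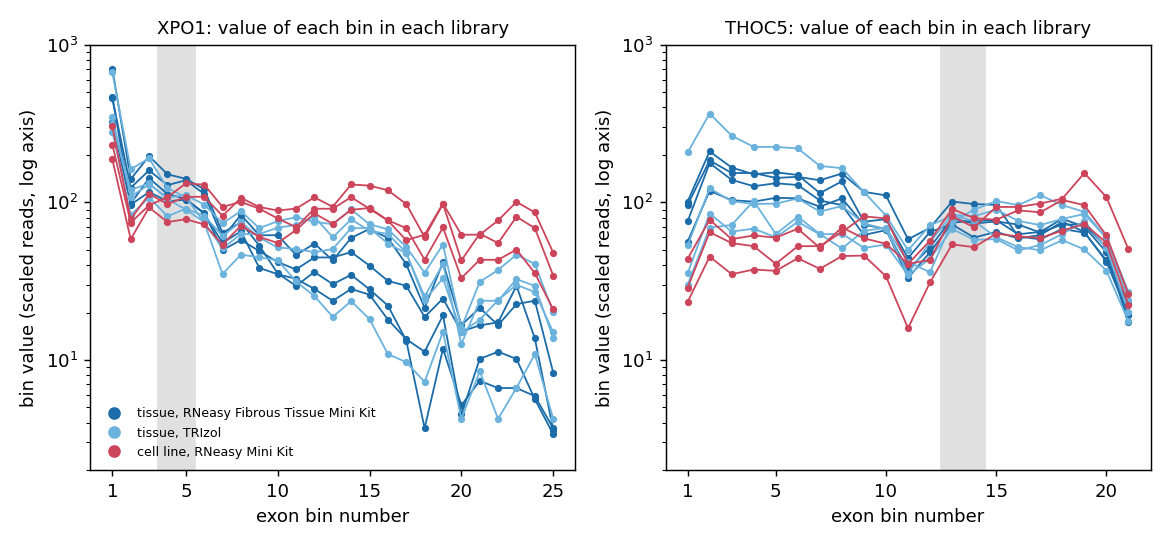
Value of every exon bin (vertical, log axis, scaled reads) against bin number (horizontal) for XPO1 (left) and THOC5 (right), with 1 line per library coloured by kind of sample and isolation kit. The grey band marks the pair of bins chosen by the study. The red lines of the cell lines lie below most tissues at low bin numbers and above them at high bin numbers of XPO1, while for THOC5 the separation is at the low numbers.

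In THOC5 the same course appeared with its weight at the opposite end. Of its 21 bins, 4 passed, bins 3 to 6, all lower in the cell lines, with log2 differences from -1.31 to -1.13. Of all bins tested 9.25% passed as lower, the commoner direction. Bin 5 ranged from 60.0 to 225 scaled reads in the tissues, with a median of 119, and was 59.7, 40.7 and 36.8 in OSCA-30, OSCA-32 and OSCA-40 (log2 difference -1.31, SE 0.40, limma adjusted p = 0.0445). The lowest tissue, DOS-119, and the highest line, OSCA-30, were separated by less than the value of 1 read.

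Bin 1 of THOC5 overlapped between the groups, at 30.0 to 207 scaled reads in the tissues and 43.8, 28.8 and 23.3 in the lines. Bin 21 held 17.3 to 27.0 scaled reads in the tissues, with a median of 19.7, and 26.0, 50.3 and 22.3 in the lines (log2 difference 0.56, SE 0.33, limma adjusted p = 0.264). OSCA-32 was the highest library at bin 21, and the other lines lay among the tissues. The groups did not overlap in 5 bins of THOC5, all lower in the lines, as was the case for 8.37% of all bins tested.

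The calls in THOC5 depended on the scaling. None of its bins passed after median-of-ratios scaling, equal totals or TMM scaling (0 of 21 in each), whereas XPO1 had 9, 5 and 9 called bins (limma). Without OSCA-32, OSCA-40, 1091, 0320 or 0460 in turn the count for THOC5 was 0, without OSCA-30, 1033, DOS-126 or DOS-127 it was 1, and with only the TRIzol tissues it was 0. edgeR called 1 bin of THOC5 and 5 of XPO1, and DESeq2 called 6 and 8.

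**Figure D3:**
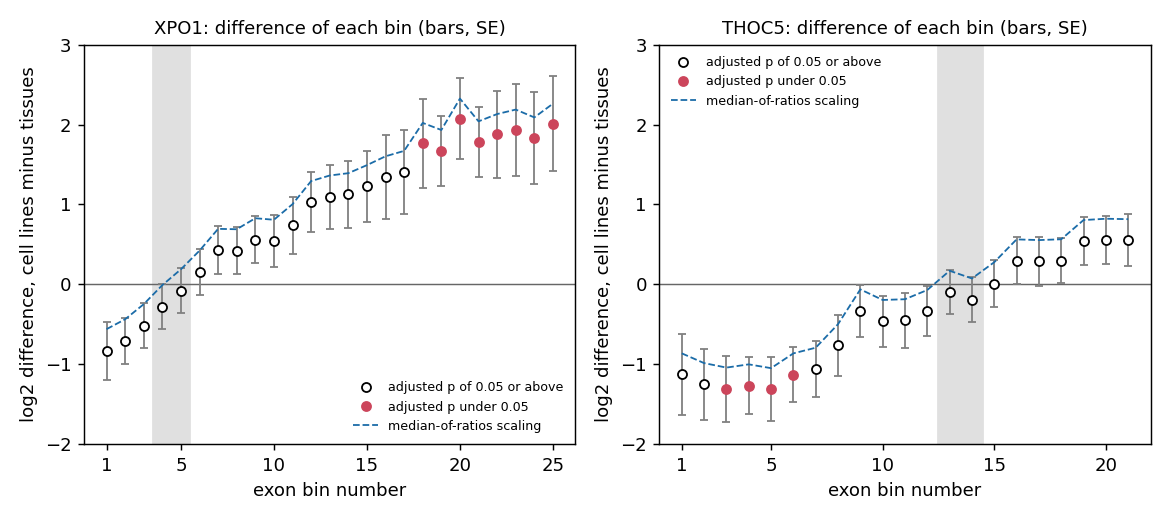
Difference of each bin between cell lines and tissues (vertical, log2 of value + 1, bars are SE from limma) against bin number (horizontal) for XPO1 (left) and THOC5 (right). Filled points passed an adjusted p of 0.05, the dashed line gives the difference after median-of-ratios scaling, and the grey band marks the pair of bins chosen by the study. The differences run upward from negative to positive values in both genes and cross 0 next to the grey bands.

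The differences formed a gradient along both genes. In XPO1 the log2 difference was -0.83 at bin 1, was below 0 up to bin 5, was above 0 from bin 6 and was 2.01 at bin 25. In THOC5 it was -1.13 at bin 1, was below 0 up to bin 14, was above 0 from bin 15 and was 0.56 at bin 21. The course was the same when bins were summed at either end. Bins 13 to 25 of XPO1 together held 142 to 637 scaled reads in the tissues (median 388) and 739, 1021 and 1071 in the lines, above every tissue, with a log2 difference of 1.54. Bins 1 to 12 held 1073 to 1746 in the tissues (median 1315) and 957, 1297 and 1378 in the lines, with overlapping groups and a log2 difference of -0.16, a sign that turned to 0.11, 0.02 and 0.13 under median-of-ratios, equal-total and TMM scaling.

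For THOC5, bins 1 to 10 held 620.1 to 2039 scaled reads in the tissues (median 1019) and 604, 573 and 385 in OSCA-30, OSCA-32 and OSCA-40, below every tissue, with a log2 difference of -1.04. Bins 11 to 21 held 576 to 822 in the tissues (median 660.5) and 808, 937 and 553 in the lines, with overlapping groups and a log2 difference of 0.15. A gene sum therefore added bins that differed in opposite directions, in different proportions for XPO1 and THOC5.

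The test of bin use asks whether the difference of a bin departs from that of the other bins of its gene. The use difference depends on the library's factor only through the pseudocount and the filter. Its SE also depends on the factor, since it takes in the spread of the bin values between libraries. Bin use was not rerun with limma under the other scalings, so whether its calls depend on them was not tested. Of XPO1, 2 bins passed: bin 1 with a use difference of -1.81 (SE 0.43, limma diffSplice adjusted p = 0.0246) and bin 2 with -1.67 (SE 0.43, limma diffSplice adjusted p = 0.0495). Of THOC5, 0 passed, although 13 of its bins had an unadjusted p under 0.05 in limma diffSplice, which 6.86% of all bins tested reached, with use differences from -0.95 at bin 5 to 1.01 at bin 21. Over all 98962 bins tested, 0.275% passed, 0.0667% as higher and 0.208% as lower. The test of edgeR for bin use called 0 bins of either gene. With the tissues of the fibrous tissue kit alone, 7 bins of each gene passed, with the TRIzol tissues alone 0 of either, and the 2 calls in XPO1 became 0 without any 1 of OSCA-30, OSCA-32, OSCA-40, 1091, 0460 or DOS-126, and 1 without 1033 or without 0320.

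The gradient itself was measured as a slope, the change in log2(value + 1) from the first to the last bin of a straight line fitted over the bin numbers of a gene in a library. This measure was added after the bin values had been seen. The slope of XPO1 was negative in every library, between -6.04 in 0460 and -2.50 in DOS-119 among the tissues (median -3.70). It was -1.36 in OSCA-30, -0.90 in OSCA-32 and -1.23 in OSCA-40, flatter than in every tissue. The cell lines exceeded the tissues by 2.86 (SE 0.74, limma adjusted p = 0.0112). The slope of THOC5 was -3.39 in DOS-126, the lowest tissue, had a median of -1.38 and was 0.23 in DOS-71, the highest. It was 0.26 in OSCA-30, 1.23 in OSCA-32 and 0.68 in OSCA-40, above every tissue although DOS-71 and OSCA-30 nearly met. The difference for THOC5 was 2.13 (SE 0.58, limma adjusted p = 0.0126).

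Such slopes were widespread: of 4012 genes with at least 10 bins, 59.3% passed the same test, and the groups did not overlap in 42.5%. A pass is therefore common among genes. By size, XPO1 ranked 128 and THOC5 399 among the 4012 genes, so that 3.19% and 9.95% of genes differed at least as much, and the median gene differed by 1.13 in absolute value. With the TRIzol tissues alone the slope differences were 2.27 for XPO1 (limma adjusted p = 0.0801) and 1.82 for THOC5 (limma adjusted p = 0.104), and without OSCA-32 that of THOC5 was 1.88 (limma adjusted p = 0.0527). Among libraries with lane number 6, 4 tissues and 2 cell lines, the slopes differed by 3.49 for XPO1 and 2.47 for THOC5. Among those with lane number 7, 4 tissues and OSCA-40 alone, the slopes differed by 2.20 and 1.77. The corresponding gene values differed by 0.25 and 0.49 for XPO1 and by -0.34 and -0.83 for THOC5 with lane numbers 6 and 7. Since libraries with lane number 7 need not come from a single run, these are comparisons within a label.

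After the line of each library had been removed, each bin was tested by itself with limma, without diffSplice. In this test 0 bins of XPO1 and 0 of THOC5 passed, with lowest adjusted p of 0.672 and 0.581 (limma). An unadjusted p under 0.05 was reached by 0 and 3 bins, against 7.74% of all bins tested in this way. Of these 0.0697% passed. The departures from the line lay between -0.39 and 0.33 for XPO1 and between -0.27 and 0.35 for THOC5.

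The bins carry no coordinates in the table. The counting scripts of DEXSeq, which the methods name, number bins upward along the chromosome, which places bin 1 of a minus-strand gene at its 3′ end and the last bin at its 5′ end. Among 33 other genes with known strand and at least 10 bins, the slope difference between cell lines and tissues was negative in 14 of 14 plus-strand genes (median -1.20) and positive in 19 of 19 minus-strand genes (median 1.15). Read in the direction of transcription, the values of XPO1 thus rose toward the 3′ end in all 11 libraries, and more so in each tissue than in each cell line. The median rise of the 33 genes was 1.10 to 2.51 in the tissues and 0.41 to 0.59 in the lines. XPO1 rose by 2.50 to 6.04 in the tissues and by 0.90 to 1.36 in the lines, and THOC5 fell in all 3 lines and in DOS-71. Bin values are not corrected for bin length, which also enters the sign of a rise or fall within a library. A rise can therefore be compared between libraries, but neither its size nor its sign can be compared between genes. The part of this rise in the differences of the gene sums was not tested.

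**Figure D4:**
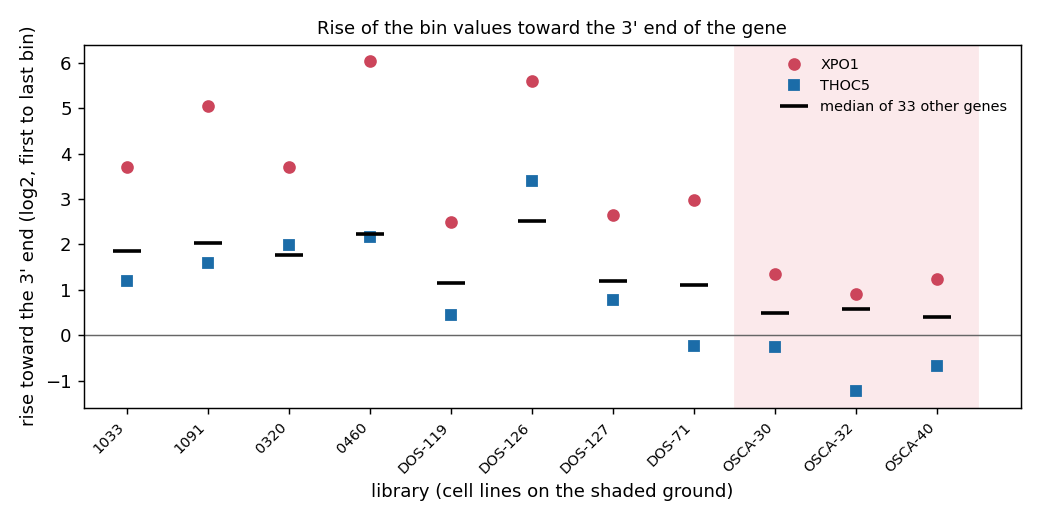
Rise of log2(value + 1) from the 5′ end to the 3′ end of XPO1 (circles) and THOC5 (squares) on the vertical axis for each library on the horizontal axis, with the median of 33 other genes as a dash and the cell lines on shaded ground. Rises can be compared between libraries but not between genes, and both genes have their lowest rises in the cell lines, apart from DOS-71, where THOC5 is close to OSCA-30.

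Among the 8 tissues, the slopes of XPO1 and THOC5 went together (Pearson's r = 0.81, exact permutation p = 0.0135; Spearman's rho = 0.83, exact permutation p = 0.0154; 8 tissues, adjusted over 2 relations 0.0271 and 0.0308). Without 0460 and DOS-126, the tissues farthest from the median of XPO1, r was 0.66 (exact permutation p = 0.142) and no longer passed with the 6 tissues left. The points share libraries and depth. The median rise toward the 3′ end of the 33 other genes also varied among the tissues. It went from 1.10 in DOS-71, 1.16 in DOS-119 and 1.21 in DOS-127 to 2.23 in 0460 and 2.51 in DOS-126. Whether the relation of the slopes goes beyond this shared variation was not tested. Gene values of XPO1 and THOC5 showed no such relation in the tissues, with r = -0.04 (exact permutation p = 0.925) and rho = -0.05 (exact permutation p = 0.935), both adjusted over the 2 relations to 0.925 and 0.935. Without 1033 and 1091, r was -0.22 (exact permutation p = 0.685), and its sign turned with equal totals (0.26) and without DOS-119 (0.43).

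The pairs of bins that the study chose, bins 4 and 5 of XPO1 and bins 13 and 14 of THOC5, lie where the gradients cross 0. The pair of XPO1 averaged 86.4 to 145.8 scaled reads in the tissues (median 109.04) and 76.6, 119.8 and 103 in OSCA-30, OSCA-32 and OSCA-40. The pair of THOC5 averaged 62.8 to 99.3 in the tissues (median 77.8) and 85.1, 75.5 and 53.0 in the lines. The log2 differences of -0.18 and -0.14 turned their sign with the scaling: for XPO1 they were 0.091, 0.0028 and 0.11 and for THOC5 0.12, 0.033 and 0.14 under median-of-ratios, equal-total and TMM scaling, a comparison added after the values had been seen. In the deposited scaling OSCA-30 lay below every tissue for the pair of XPO1 and OSCA-40 for that of THOC5, and the other lines lay among the tissues.

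Relative to the other bins of the same gene, however, the pair of XPO1 was lower in the cell lines. The log2 ratio of the pair to the other bins was -3.03 to -2.49 in the tissues and -3.33, -3.12 and -3.45 in the lines, with no overlap, a difference of -0.56 (two-sided exact permutation test over 165 splits, p = 0.00606, the lowest that is possible with them). It was -0.49 to -0.65 with each library left out. For THOC5 the ratio was -3.97 to -3.00 in the tissues and -2.87, -3.17 and -2.97 in the lines, a difference of 0.37 that did not pass (two-sided exact permutation test, p = 0.0970). The lower ratio is not particular to the pair of XPO1. Bins 1 to 3, outside it, had use differences of -1.81, -1.67 and -1.48, against -1.23 and -1.02 for bins 4 and 5. How often pairs at a like place in other genes differ in this way was not tested. These pairs had been chosen for an even level on libraries that include these, so the values describe the choice and do not support it independently.

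The coefficient of variation (CV, SD over mean) over the 11 libraries showed a trough in each gene. In XPO1 it was 0.432 at bin 1, 0.194 at bin 4, 0.184 at bin 5, the lowest, and 0.901 at bin 25. In THOC5 it was 0.779 at bin 1, 0.156 at bin 13, the lowest, 0.185 at bin 14 and 0.384 at bin 21. Counting error alone would give 0.0501 to 0.280 in bins of XPO1 and 0.0813 to 0.226 in bins of THOC5. Of all 24 neighbouring pairs of XPO1 and all 20 of THOC5, the chosen pair had the lowest CV of its gene, 0.181 (jackknife SE 0.0417) and 0.162 (jackknife SE 0.0436). Within the 8 tissues these pairs had CVs of 0.171 and 0.144.

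The pair with the lowest CV moved by 1 bin with the scaling. After median-of-ratios, equal-total or TMM scaling, the pair with the lowest CV was bins 3 and 4 in XPO1 and bins 12 and 13 in THOC5, and the chosen pair came at rank 2 in each case. The single bin with the lowest CV was bin 4 in XPO1 after each rescaling and stayed bin 13 in THOC5. The bin at which the difference turned positive moved in the same direction, from 6 to 5, 5 and 4 in XPO1 and from 15 to 13 in THOC5.

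**Figure D5:**
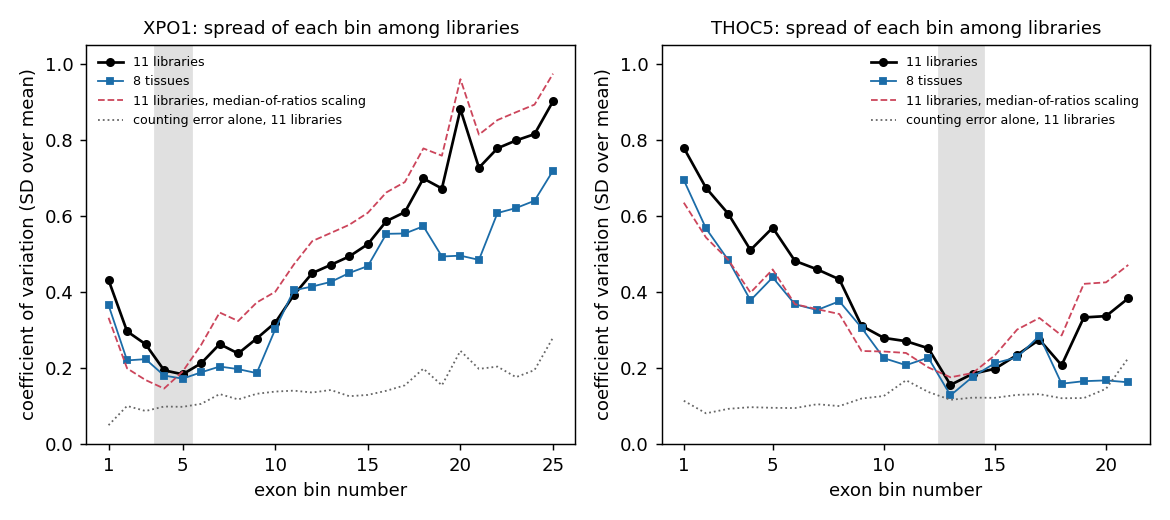
Coefficient of variation of each bin (vertical, SD over mean) against bin number (horizontal) for XPO1 (left) and THOC5 (right), over 11 libraries, over the 8 tissues, over 11 libraries after median-of-ratios scaling and as counting error alone would give. The lowest point of the black line is bin 5 in XPO1 and bin 13 in THOC5, both inside the grey band of the chosen pair.

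For the whole genes, the CV over 11 libraries was 0.179 (jackknife SE 0.0346) for XPO1 and 0.279 (jackknife SE 0.0725) for THOC5, and in the tissues alone 0.128 (jackknife SE 0.0210) and 0.246 (jackknife SE 0.0744). In the deposited scaling the gene sum of XPO1 thus had nearly the CV of its chosen pair, whereas that of THOC5 exceeded its pair. After median-of-ratios scaling this was the other way round: the gene CV was 0.262 for XPO1, against 0.161 for its pair, and 0.184 for THOC5, against 0.173 for its pair.

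Within the tissues, the isolation kits were compared. The paper names sites of collection in Minnesota and Vienna, and kit was not separated from site here. XPO1 was 1686 ± 278 (SD, n = 4) in tissues of the fibrous tissue kit and 1748 ± 183 (SD, n = 4) in those of TRIzol, a log2 difference of -0.06 (SE 0.27, limma adjusted p = 0.980). THOC5 was 1864 ± 237 (SD, n = 4) and 1742 ± 628 (SD, n = 4), a log2 difference of 0.15 (SE 0.31, limma adjusted p = 0.951). Of all 13999 genes tested, 0.00714% passed, and lane number and kit split the tissues in the same way. The slope of XPO1 averaged -4.62 and -3.43 in the kits and that of THOC5 -1.73 and -1.10, differences of -1.19 and -0.63 that did not pass (two-sided exact permutation tests over 70 splits, p = 0.200 and p = 0.486).

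Genes with a course like that of XPO1 or THOC5 were sought over the 8 tissues by Pearson's r of log2(value + 1) among 13856 genes. For XPO1 the closest identifiers were ENSCAFG00000009414 (r = 0.96) and ENSCAFG00000019851 (r = 0.95), and of genes with a symbol HNRNPUL1 (r = 0.63), SMU1 (r = 0.45) and HGS (r = 0.39). For THOC5 they were ENSCAFG00000012103 and ENSCAFG00000014742 (both r = 0.97), and of genes with a symbol ZC3H13 (r = 0.76), SRRT (r = 0.74) and TBC1D14 (r = 0.69). Only 50 identifiers could be paired with a symbol, and the highest r among so many genes over 8 tissues is a description.

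Other members of the export pathways could not be paired with identifiers and were not analysed here. Of 15 RNA processing genes listed by the study, among them hnRNP proteins, which bind nascent transcripts, 14 had a row of their own. In the cell lines 0 of these passed as higher and 1 as lower, against 2.6% and 14.4% of all genes tested. The gene that passed was SRRT, a cofactor of the nuclear cap-binding complex (log2 difference -0.93, limma adjusted p = 0.0460). The median log2 difference of the 14 genes was -0.13, compared with -0.37 for all genes. Of the other genes from which the study took reference exons, 8 with a row of their own were tested, of which 3 (HNRNPL, HNRNPUL1 and HNRNPR) are also among the 14, and 0 passed with limma, 0 also at an unadjusted p under 0.05, which 31.8% of all genes tested reached, with log2 differences from -0.19 to 0.53 and a median of 0.13. XPO1, at 0.32, lay within this range and THOC5, at -0.48, below it. The study chose both lists for even levels on libraries that include these.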

How the data were processed

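Illumina libraries of poly(A) RNA from 8 tissues and 3 cell lines were analysed. The authors demultiplexed the reads with CASAVA 1.8.2, aligned them with TopHat to canFam3, discarded reads with several matches, assigned the rest to Ensembl exon bins by means of DEXSeq scripts, and deposited 1 table of signal values, the counts scaled by 1 factor per library. How the factors were made is not given in the sources used here. In every library 100% of the deposited values divided evenly by its smallest value above 0, taken as 1 read, within a tolerance of 0.01, which gave the reads. Depth was 3123757 to 24902774 reads. Identifiers were paired with symbols and strands through the study's lists.

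The tests of gene values and bins (mean of at least 10) used limma 3.58.1 with a trend in R 4.3.3 on log2(value + 1), those of bin use its diffSplice, all adjusted by Benjamini-Hochberg over the whole table at 0.05. This scale understates changes of low values. diffSplice treats the bins of a gene as independent, although they share libraries. Log ratios were compared by exact permutation tests (Python 3.11.15, numpy 2.4.6, scipy 1.17.1, pandas 2.3.3, matplotlib 3.10.9). edgeR 4.0.16 and DESeq2 1.42.0 on recovered reads, 3 other scalings, pseudocounts of 0.5 and 5, other filters, and leaving out libraries were alternatives. Each library is a separate dog and none was repeated, so p-values measure the spread between these libraries. No libraries were alike within sampling noise: chi-square per gene was at least 70.8 in each pairing.

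Tested on simulated data with 200 changed genes or bins and a log2 change of 2, limma recovered 200 of 13858 genes, 192 of 68904 bins and, for use, 195 of 68904 bins, and also called 15, 5 and 48 unchanged ones. For slopes it recovered 200 of 4012 genes and called 10 unchanged ones. These data were drawn with the same dispersion throughout, each gene or bin independently, with no spread shared by the bins of a library. Unchanged genes had no difference of gradient between the groups. The change of 2 was larger than the gene differences of XPO1 and THOC5. The counts therefore do not give the error rates of the tests on the real data.

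The members, lists and tests were chosen with earlier results of these data known. The named bins were those passing a test, the study's pair and single bin, and the bins with extreme use differences. Cell type markers and the nuclear export list were not analysed here, since 0 of 24580 identifiers were found in the reference table and 50 were paired through the study's lists.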

Additional observations from a re-analysis of the deposited data

Results flagged for a closer look

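Of 13 measures of XPO1 and THOC5 examined over the 8 tissues for a sample far from the others (gene values, slopes, chosen pairs, first and last bins and the ratio of the genes), 1 stood out. Bin 1 of THOC5 was at 207 scaled reads in DOS-126, while the next tissue, 0460, was at 101, a gap of 0.598 of the range of the tissues against a limit of 0.526. With normally distributed values, chance alone gives such a gap in about 1 in 20 groups, and 13 measures were examined. The values of this bin were not put on a log scale for this check. Without DOS-126, the slope difference of THOC5 between cell lines and tissues was 1.85 (limma adjusted p = 0.0165) and 1 bin of THOC5 was called in place of 4.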

How the results depend on the processing

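Across 364 alternatives to 21 results, 272 kept the direction and side of the threshold, or the count within 1.5 times, and 92 did not; the cause was not tested unless fewer libraries or bins entered (a mean of at least 100 left 5 bins of each gene, and none of bins 18 to 25 of XPO1). Between cell lines and tissues, the directions of the gene values, of their ratio, of the ratio of each chosen pair to the other bins and of the slopes were the same under every alternative run for them. The levels of the chosen pairs (-0.18 for XPO1, -0.14 for THOC5) turned to 0.091, 0.0028 and 0.11 and to 0.12, 0.033 and 0.14 with median-of-ratios, equal-total and TMM scaling. DESeq2 called XPO1 (0.59). With TRIzol tissues alone the slopes (XPO1 2.27, THOC5 1.82) and the ratio of the genes (0.69) lost their calls, and the ratio also without DOS-71 and OSCA-32 (0.91). Called bins of XPO1, 8 in the report, were 5 with edgeR and equal totals, 3 with no filter, and 0 with a mean of at least 100, with TRIzol tissues or without DOS-71 and OSCA-32. Those of THOC5, 4 in the report, were 1 with edgeR, a mean of at least 100 or no filter, and 0 with each rescaling, with TRIzol tissues or without DOS-71 and OSCA-32. XPO1 bins with changed use, 2 in the report, were 1 with a pseudocount of 0.5, 7 with tissues of the fibrous tissue kit, and 0 with edgeR, a mean of at least 100, TRIzol tissues, the straight line removed or without DOS-71 and OSCA-32; THOC5 had 7 with tissues of the fibrous tissue kit. The gene CV of XPO1 was 0.262, 0.318 and 0.272 with median-of-ratios, equal-total and TMM scaling, and that of THOC5 0.184 with median ratios and 0.180 with TMM. Between kits, THOC5 turned to -0.0219 with equal totals, and r between the genes in tissues turned to 0.26. Genes called between kits, 1 in the report, were 139 with DESeq2 and 0 with edgeR, a mean of at least 100, no filter or a pseudocount of 0.5. Genes called between cell lines and tissues were 1422 with a mean of at least 100, 1204 with TRIzol tissues, 1012 with those of the fibrous tissue kit and 1495 without DOS-71 and OSCA-32, against 2352, and genes with a slope called were 37 with TRIzol tissues, against 2378.

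Leaving out 1 library at a time gave 0 to 9 called bins of XPO1 and 0 to 6 of THOC5, 0 to 3 XPO1 bins with changed use, and 1529 (without OSCA-32) to 2315 called genes. The log2 ratio of the genes ranged from 0.49 (without OSCA-40) to 1.04, the slope difference of THOC5 from 1.85 to 2.37 with 1.88 and no call without OSCA-32, and genes with a slope called from 1081 (without OSCA-32) to 2847, with 1167 without OSCA-30 and 1269 without OSCA-40. Between kits, XPO1 ranged from -0.13 to 0.0099, with 0.0070 without 1091 and 0.0063 without DOS-119, and THOC5 from -0.0076 (without DOS-119) to 0.37, with 0 to 1 genes called. The r between the genes in tissues ranged from -0.19 to 0.43 (without DOS-119). No paired analysis was possible because each library came from a different dog. Bins 18 to 25 of XPO1 had the fewest reads, 3 to 11 in the library with the fewest.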

Other observations

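The study also lists a single exon of each gene, under the numbers 21 for XPO1 and 9 for THOC5. Read as bin numbers of the table, these are bin 21 of XPO1, with a CV of 0.727 over 11 libraries, at rank 20 of 25 bins from the lowest, and bin 9 of THOC5, with a CV of 0.311, at rank 10 of 21. Counted from the other end, they are bin 5 of XPO1 (CV 0.184) and bin 13 of THOC5 (CV 0.156), each at rank 1 of its gene. Which end the list counts from is not stated in the sources used here. Only the count from the other end gives bins inside the chosen pairs, with the lowest CV of each gene.

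Bin 21 of XPO1 held 7.38 to 31.3 scaled reads in the tissues (median 17.3) and 43.2, 62.3 and 63.3 in OSCA-30, OSCA-32 and OSCA-40, all above every tissue (log2 difference 1.78, SE 0.44, limma adjusted p = 0.0191). Bin 9 of THOC5 overlapped between the kinds of sample (log2 difference -0.33, SE 0.33, limma adjusted p = 0.518).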
